A study of Mus musculus with 10 samples.

Results

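The E2F transcription factors and the pocket proteins p107 (Rbl1) and p130 (Rbl2) were examined in limb buds of mouse embryos labelled Dicer mutant or wild type. Every probe set annotated to exactly 1 of the symbols E2f1 to E2f8, Rbl1 and Rbl2 was taken, which gave 22 probe sets for 10 of the 18193 genes named on the array. The series holds 10 Affymetrix arrays with 1 sample each, 5 labelled Dicer mutant and 5 labelled wild type, numbered 1 to 5 in both groups, and its question is what loss of Dicer in limb mesenchyme does to gene expression. Embryos came from a cross between a parent with 1 floxed Dicer allele plus the prxcre driver, a Cre transgene active in limb bud mesenchyme, and a parent with both Dicer alleles floxed. By that cross every embryo inherits at least 1 floxed allele, the embryos labelled wild type included, and no other treatment is named for either group. The sources used here do not state whether heterozygous limb buds are among those labelled wild type, the embryonic stage, or which limbs were taken. Because the driver acts in mesenchyme, the ectoderm, vessels and blood of a limb bud keep Dicer. No label says that the samples came from separate embryos, so the p-values below measure the spread between these samples, which may be technical.

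E2F proteins bind the promoters of genes for DNA replication and mitosis, most of them as dimers with a DP protein. E2f1, E2f2 and E2f3 are the activators of the family. E2f4 and E2f5 act mainly as repressors in complexes with p107 and p130, E2f6 represses together with Polycomb proteins, and E2f7 and E2f8 repress without a DP partner or a pocket protein. Cyclin-dependent kinases phosphorylate the pocket proteins in the G1 phase, which frees the E2Fs they hold, and in a limb bud this switch operates in a mesenchyme that divides quickly. Dicer, encoded by Dicer1, cuts precursor hairpins into mature microRNAs, and several microRNAs are known to act on E2F messages. In human cells miR-17-5p, miR-20a and miR-106b lower E2F1, miR-20a also lowers E2F2 and E2F3, miR-34a lowers E2F3, and let-7a lowers E2F2.

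The mature sequences of these Dicer products are shown because they, or microRNAs with the same seed, are the ones known to act on E2F messages. They were taken from RefSeq on assembly GRCm38.p6 and are written 5′ to 3′, with the seed (bases 2 to 8), the stretch that pairs with a target, in capitals. Whether the mouse messages of the 10 genes hold matches to these seeds was not analysed here.
let-7a-5p (chr13:48538239-48538260, minus strand): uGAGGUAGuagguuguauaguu
let-7c-5p (chr15:85706616-85706637, plus strand): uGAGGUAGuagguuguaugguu
let-7g-5p (chr9:106178846-106178867, plus strand): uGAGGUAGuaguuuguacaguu
miR-17-5p (chr14:115043684-115043706, plus strand): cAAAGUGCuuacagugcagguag
miR-20a-5p (chr14:115044183-115044205, plus strand): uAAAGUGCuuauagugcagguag
miR-106b-5p (chr5:138165787-138165807, minus strand): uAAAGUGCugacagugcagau
miR-34a-5p (chr4:150068473-150068494, plus strand): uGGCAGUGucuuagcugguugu
By their capitals the let-7 members share 1 seed, miR-17-5p, miR-20a-5p and miR-106b-5p share another, and miR-34a-5p has its own. Levels of these microRNAs were not analysed here.

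Signals are linear intensities as deposited, with array medians between 145.8 and 152.8. The lowest median was that of Dicer mutant array 2, and the other arrays lay at 150.7 to 152.8. Dicer1, the targeted gene, was read first. Its probe set 1427941_at had a signal of 226, 359.7, 221, 215 and 205 in the mutant arrays 1 to 5, against 425, 233, 372, 390.4 and 706 in the wild type arrays 1 to 5. The library labelled Dicer mutant 2 was thus the highest of its group and the library labelled wild type 2 the lowest of its own, so both arrays numbered 2 went against their labels, and the same held for the second Dicer1 probe set, 1460571_at, at 555, 774, 523, 534 and 506 in the mutant arrays, against 771, 551, 753, 707 and 940.0 in the wild type arrays. Neither array was relabelled. The log2 fold changes and counts are given for the 10 arrays as labelled and for the 8 arrays numbered 1, 3, 4 and 5, a choice made with the Dicer1 values known. The first principal component of all tested probe sets, with 37.7% of the variance, set numbers 1 to 3 apart from numbers 4 and 5 in both groups. No label says what a number or that split stands for. For the members with the larger differences, values are therefore given within numbers 1 and 3 and within numbers 4 and 5, or for each number. All 14 markers of limb bud mesenchyme examined, such as Prrx1 and Msx1, were bright enough to be tested, and their summed signal ranged from 14969 to 18034 in the mutant arrays and from 14621 to 18260 in the wild type arrays.

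In the family as a whole, 1 probe set passed the test: E2f5, by its probe set 1417444_at, was 1.33-fold higher in Dicer mutant than in wild type limb buds in the 8 arrays. That call held in 2 of the 8 fits that left out 1 array, and it was lost for the mean of the gene's probe sets. No probe set of the 10 genes passed as lower. E2f1 1447840_x_at and a second E2f5 probe set had log2 fold changes of similar size that missed the threshold and passed with the replicate number as a block, and E2f2, E2f4, E2f6 and E2f8 differed by less than 0.15 on the log2 scale. With all 10 arrays as labelled no member passed. A limb bud sample mixes cell types, so more cells of a type and more RNA per cell cannot be told apart in any of these values.

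Of the 22 probe sets, 17 had a mean log2 signal no lower than the median probe set and were tested among 22519 with limma on log2 signals, with p-values adjusted by Benjamini-Hochberg over all of them and called at 0.05. The other 5, which belong to Rbl1, Rbl2 and E2f6, are described by their signals only. In the 8 arrays 1 of 17 was called, higher in the mutant, against a background of 0.928% of all tested probe sets called higher and 1.68% called in either direction. The log2 fold change was above 0 for 16 of the 17, against 47.7% of all tested probe sets, and the median was 0.14 against -0.0064 for all. At an unadjusted p below 0.05 stood 6 of the 17, all with higher mutant means, against 12.7% of all in either direction. The 17 probe sets belong to 10 genes, and these 6 to E2f1, E2f3, E2f5 and E2f7 only, so they are not independent counts. With 1 probe set per gene, 8 of 8 E2F genes and 2 of 2 pocket protein genes were above 0, against 45.6% of all genes. Of these, 3 E2F genes and 0 pocket protein genes had an unadjusted p below 0.05. The share of all genes at that p was not counted, so this count has no background beside it. In the 10 arrays as labelled limma called 0 of the 17, and the background was 0%. There 0 of the 17 had an unadjusted p below 0.05, against 632 probe sets or 2.81% of all, 14 of the 17 were above 0, against 40.3% of all, and the median was 0.088 against -0.021. All mutant arrays lay above all wild type arrays for 4 of the 17 in the 8 arrays, against 4.12% of all tested probe sets, and these were 2 probe sets of E2f5, 1 of E2f1 and 1 of Rbl1. In the 10 arrays this was so for 0 of the 17, against 0.107% of all.

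**Figure D1:**
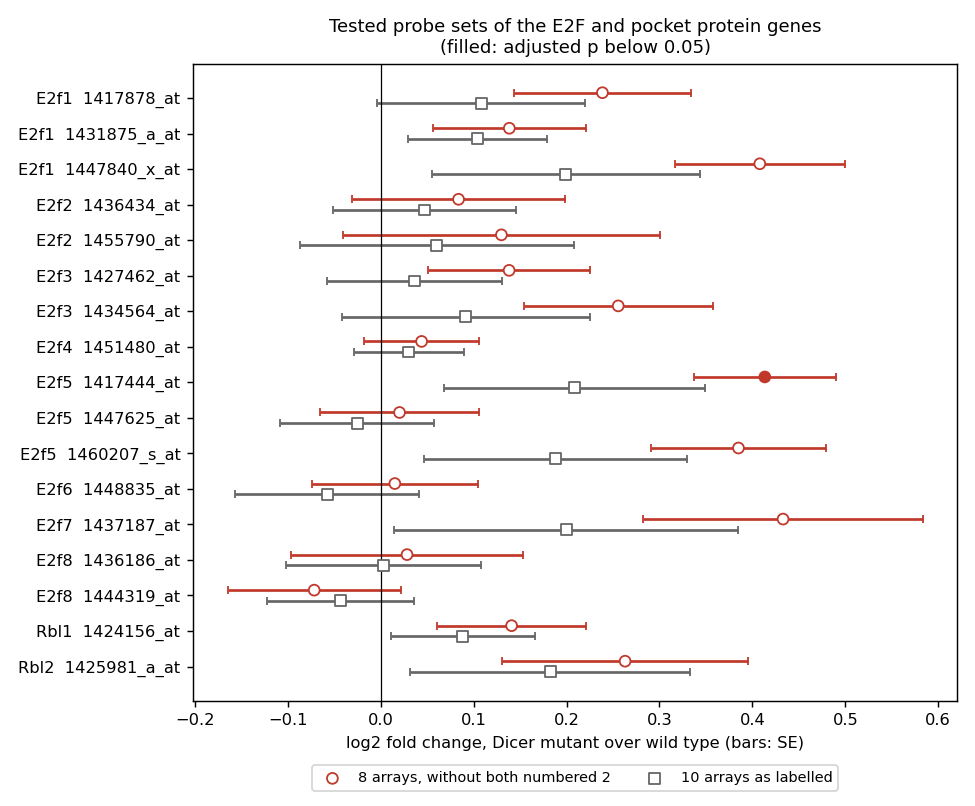
Log2 fold change of Dicer mutant over wild type (horizontal axis) with its standard error for the 17 tested probe sets of the E2F and pocket protein genes. Circles are the 8 arrays and squares the 10 arrays as labelled; a filled mark has an adjusted p below 0.05, which only E2f5 1417444_at at 0.41 reached, and the 8-array value was above 0 in 16 of 17 probe sets.

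The activators came first by role. E2f1 drives entry into S phase and can also start apoptosis. Its probe set 1447840_x_at had a signal of 221, 131, 210.0, 171 and 175 in the mutant arrays 1 to 5, against 155, 203, 142, 141 and 145 in the wild type arrays 1 to 5. Without number 2 the mutant arrays, at 171 or more, all lay above the wild type arrays, at 155 or less, while in number 2 the order was the reverse, with the lowest mutant and the highest wild type signal. The log2 fold change was 0.41 (SE 0.091, adjusted p = 0.0653 by limma) in the 8 arrays, which missed the threshold, and 0.20 (SE 0.14, adjusted p = 1.00) in the 10 arrays. With the replicate block, a fit that takes the shared number of a mutant and a wild type array as a term, this probe set passed at an adjusted p of 0.0277. The log2 difference of mutant over wild type array was 0.51, 0.57, 0.28 and 0.27 in numbers 1, 3, 4 and 5. When each of the 8 arrays was left out in turn, without the block, the log2 fold change was 0.34 to 0.47. The probe set was called in 0 of these 8 fits, with adjusted p-values from 0.0795 to 0.189 by limma.

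E2f1 probe set 1417878_at followed the same pattern at smaller size, with 335, 229, 317, 267 and 287 in the mutant arrays, against 280.2, 304, 265, 233 and 242 in the wild type arrays. The mutant array exceeded the wild type array of its number in numbers 1, 3, 4 and 5, but mutant array 4 lay below wild type array 1, so the groups overlapped. Its log2 fold change was 0.24 (SE 0.095, adjusted p = 0.321 by limma) in the 8 arrays and 0.11 in the 10 arrays. The probe set that stands for E2f1 in the gene lists, 1431875_a_at, had 413, 403, 458, 375 and 431 in the mutant arrays, against 405, 412, 373, 370.4 and 372 in the wild type arrays. Its groups overlapped and its log2 fold change of 0.14 (SE 0.083, adjusted p = 0.586 by limma) was the smallest of the 3 in the 8 arrays. Over the 10 arrays the first 2 of these E2f1 probe sets correlated at r = 0.94, and 1431875_a_at correlated with them at 0.67 and 0.68. These correlations are descriptions over arrays that share their groups. Probe sets ending in _x_at may also bind related sequences.

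E2f2, an activator known for its part in blood cell proliferation, had 2 tested probe sets. Probe set 1436434_at had a signal of 585, 468, 545, 465 and 438 in the mutant arrays, against 515, 502, 507, 419 and 472 in the wild type arrays. Probe set 1455790_at had 347, 270.1, 367, 294 and 316 in the mutant arrays, against 399, 314, 316, 307 and 214 in the wild type arrays. Both sets of arrays overlapped widely, and the highest and the lowest signal of 1455790_at both belonged to wild type arrays. The log2 fold changes were 0.084 (SE 0.11) and 0.13 (SE 0.17) in the 8 arrays, with adjusted p-values of 0.883 and 0.876 by limma, and 0.047 and 0.060 in the 10 arrays.

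E2f3, which in mouse fibroblasts is needed for normal proliferation, was read by 2 probe sets that correlated at r = 0.75 over the 10 arrays. Probe set 1434564_at had a signal of 771, 561, 772, 860.0 and 886 in the mutant arrays 1 to 5, against 777, 829, 671, 723 and 591 in the wild type arrays 1 to 5. Mutant arrays 4 and 5 were the highest of all, mutant array 2 the lowest, and mutant array 1 lay within 1 unit of mutant array 3 and just under wild type array 1. Over the 8 arrays the log2 fold change was 0.26 (SE 0.10, adjusted p = 0.321 by limma), and it was 0.092 over the 10 arrays. Within numbers 1 and 3 it was 0.095 and within numbers 4 and 5 it was 0.42. The other probe set, 1427462_at, ranged over 149.9 to 205 in the mutant arrays and 152 to 194 in the wild type arrays, overlapping, with a log2 fold change of 0.14 (SE 0.087, adjusted p = 0.617 by limma) in the 8 arrays and 0.036 in the 10 arrays.

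E2f5, like E2f4, brings p107 and p130 to promoters in resting cells, and in mice it is known for its role in the choroid plexus. Probe set 1417444_at had a signal of 1029, 733, 1203, 1145 and 1165 in the mutant arrays 1 to 5, against 811, 1119, 851, 896 and 849 in the wild type arrays 1 to 5. Among numbers 1, 3, 4 and 5 the lowest mutant array, at 1029, lay above the highest wild type array, at 896, and in number 2 the places were exchanged. The mean was 1135 ± 75.1 in mutant and 852 ± 34.7 in wild type arrays (SD, n = 4 each), a log2 fold change of 0.41 (SE 0.077, adjusted p = 0.0349 by limma). In the 10 arrays as labelled the mean was 1055 ± 191 in mutant and 905 ± 123 in wild type arrays (SD, n = 5 each), with a log2 fold change of 0.21 (SE 0.14, adjusted p = 1.00 by limma). With the replicate block in the 8 arrays the adjusted p was 0.0183. Within numbers 1 and 3 the log2 fold change was 0.42 and within numbers 4 and 5 it was 0.40. When each of the 8 arrays was left out in turn the log2 fold change stayed between 0.38 and 0.46, but the call held in only 2 of 8 fits, those without mutant array 1 or without wild type array 5, and the adjusted p ranged from 0.0342 to 0.119.

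**Figure D2:**
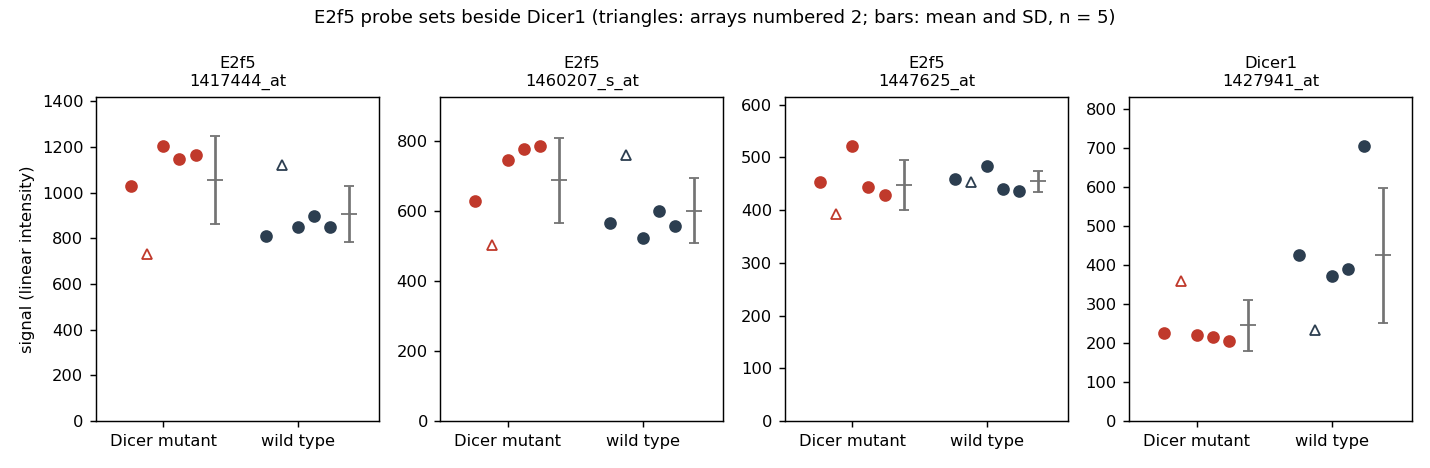
Signal (linear intensity, axes from 0) of the 3 E2f5 probe sets and of Dicer1 1427941_at in each array, mutant left and wild type right, with points from left to right for arrays 1 to 5, triangles for the arrays numbered 2, and bars for the mean and SD (n = 5). For 1417444_at and 1460207_s_at the mutant array numbered 2 sits below every wild type array and the wild type array numbered 2 above the other 4 of its group, while the circles of the groups overlap for 1447625_at.

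The second E2f5 probe set, 1460207_s_at, had 628, 503, 747, 779 and 786 in the mutant arrays, against 567, 762, 523, 599 and 557 in the wild type arrays. Its order of arrays was close to that of the first, at r = 0.96 over the 10 arrays, and without number 2 the groups did not overlap. Its log2 fold change was 0.38 (SE 0.094, adjusted p = 0.0906 by limma) in the 8 arrays and 0.19 (SE 0.14) in the 10 arrays. With the replicate block the adjusted p in the 8 arrays was 0.0434, past the threshold. The log2 difference of mutant over wild type array was 0.15, 0.51, 0.38 and 0.50 in numbers 1, 3, 4 and 5. Without the block, 0 of the 8 fits that left out 1 array called this probe set, with log2 fold changes from 0.35 to 0.46. The last E2f5 probe set, 1447625_at, had 453, 393, 522, 444 and 429 in the mutant arrays, against 458, 454, 484, 439.5 and 436 in the wild type arrays. It correlated with the others at only 0.45 and 0.29, its groups overlapped, and its log2 fold change was 0.020 (SE 0.085, adjusted p = 0.973 by limma) in the 8 arrays and -0.025 in the 10 arrays. The E2f5 probe sets therefore disagreed. When the gene was taken as the mean of its 3 probe sets the log2 fold change was 0.27 (SE 0.070) with an adjusted p of 0.0833 over 11601 genes by limma in the 8 arrays, where the call was lost, and 0.12 (SE 0.11) in the 10 arrays. Which transcripts or transcript ends the 3 probe sets read was not analysed here.

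E2f4, the other repressor of this pair and the most abundant E2F protein in many cell types, had 233, 213, 241, 238 and 220.4 in the mutant arrays, against 231, 217, 233, 215 and 225 in the wild type arrays. All 10 arrays lay within 1.13-fold of each other and the groups overlapped. For E2f4 the log2 fold change was 0.044 (SE 0.062, adjusted p = 0.888 by limma) in the 8 arrays and 0.030 in the 10 arrays.

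E2f6 has no pocket protein binding site and represses genes as part of a Polycomb complex. Probe set 1448835_at had 909.6, 628, 817, 737 and 786 in the mutant arrays, against 830.3, 799, 838, 816 and 728 in the wild type arrays. Mutant array 1 was the highest and mutant array 2 the lowest of all 10, with the wild type arrays between them. For E2f6 the log2 fold change was 0.015 (SE 0.089, adjusted p = 0.985 by limma) in the 8 arrays and -0.057 in the 10 arrays. Of the 10 arrays, leaving out mutant array 2 alone gave 0.016, and leaving out wild type array 2 alone gave -0.058. Of the 8 arrays, leaving out mutant array 1 gave -0.040 and leaving out wild type array 5 gave -0.031, so its sign hung on single arrays. The dim probe set 1437914_at was not tested and ranged over 94.8 to 136 in the mutant arrays and 93.7 to 156 in the wild type arrays.

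E2f7, a repressor that in mice acts together with E2f8 in the placenta and in cell survival, had the widest spread of the tested members. Its probe set 1437187_at had a signal of 854, 565, 870.1, 727 and 819 in the mutant arrays 1 to 5, against 757, 939.6, 618, 639 and 446 in the wild type arrays 1 to 5. Wild type array 5 was the lowest and wild type array 2 the highest, 2.11-fold apart, and wild type array 1 lay above mutant array 4, so the groups overlapped without number 2 as well. The mean was 818 ± 63.9 in mutant and 615 ± 128 in wild type arrays (SD, n = 4 each), and the log2 fold change of 0.43 (SE 0.15, adjusted p = 0.241 by limma) was the largest point value of the family in the 8 arrays. It was 0.20 (SE 0.19) in the 10 arrays, 0.33 within numbers 1 and 3, and 0.53 within numbers 4 and 5. Leaving out each of the 8 arrays in turn moved it between 0.29, without wild type array 5, and 0.54.

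E2f8, its partner, had 318, 283, 320.2, 251 and 266 in the mutant arrays, against 329, 303, 299, 275 and 233 in the wild type arrays by probe set 1436186_at. In both groups the arrays numbered 4 and 5 were the lowest, and mutant and wild type arrays overlapped. The log2 fold change was 0.028 (SE 0.12, adjusted p = 0.975 by limma) in the 8 arrays and 0.0035 in the 10 arrays. Probe set 1444319_at ranged over 164 to 198 in the mutant arrays and 163 to 214 in the wild type arrays and was the only tested member below 0 in the 8 arrays, at -0.072 (SE 0.093, adjusted p = 0.875 by limma), with -0.043 in the 10 arrays. The 2 probe sets correlated at 0.31 over the 10 arrays.

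**Figure D3:**
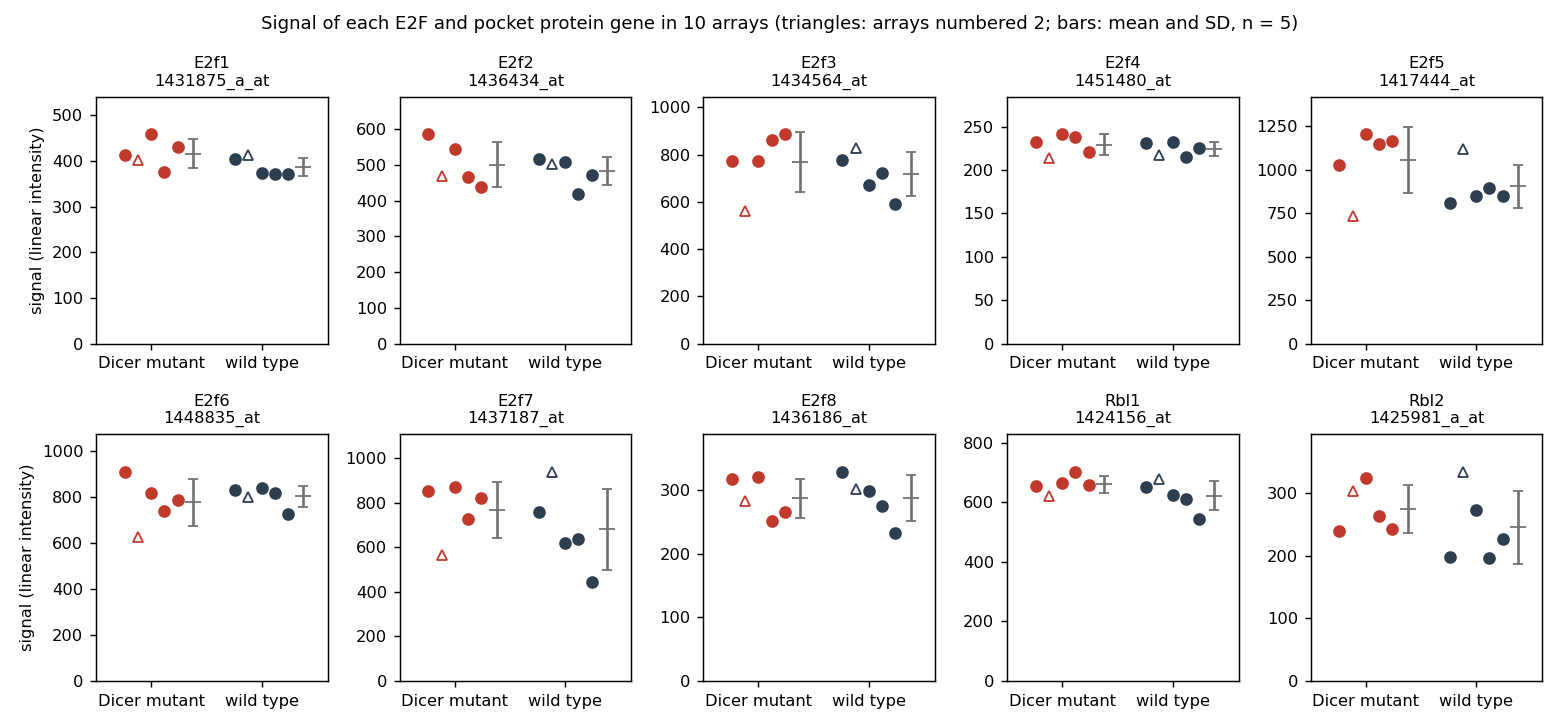
Signal (linear intensity, axes from 0) of 1 probe set per gene in the 10 arrays, mutant left and wild type right, with points from left to right for arrays 1 to 5, triangles for the arrays numbered 2, and bars for the mean and SD (n = 5). The circles of the groups are apart for E2f5 and, by about 3 units, for Rbl1, and they overlap for the other 8 genes. E2f4 stays within 1.13-fold over all arrays, and E2f7 spreads 2.11-fold.

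The pocket proteins were Rbl1 and Rbl2. Rbl1 encodes p107, whose level is known to climb in dividing cells because its own promoter is an E2F target. Probe set 1424156_at had a signal of 653, 622, 665, 702 and 656 in the mutant arrays 1 to 5, against 650.1, 677, 625, 612 and 545 in the wild type arrays 1 to 5. Without number 2 the lowest mutant array, 653, stood just above the highest wild type array, 650.1, so the groups were separated by about 3 units only. The log2 fold change was 0.14 (SE 0.080, adjusted p = 0.553 by limma) in the 8 arrays and 0.088 in the 10 arrays. Within numbers 1 and 3 it was 0.048, within numbers 4 and 5 it was 0.23, and without wild type array 5 it was 0.089 in the arrays left of the 8. The other 3 Rbl1 probe sets were under the filter. They ranged over 103 to 143 in the mutant arrays and 116 to 152 in the wild type arrays for 1432604_at, 98.1 to 124 in the mutant arrays and 98.6 to 207 in the wild type arrays for 1425166_at, and 42.5 to 58.2 in the mutant arrays and 45.9 to 57.9 in the wild type arrays for 1454293_at, with overlap in each.

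Rbl2 encodes p130, the pocket protein that prevails in cells that have left the cycle. Probe set 1425981_a_at had 239.8, 304, 325, 263 and 244 in the mutant arrays, against 199, 335, 274, 196 and 226 in the wild type arrays. Wild type array 2 was the highest of all and mutant array 3 the next, and the groups overlapped with and without number 2. For p130 the log2 fold change was 0.26 (SE 0.13, adjusted p = 0.470 by limma) in the 8 arrays, 0.18 (SE 0.15) in the 10 arrays, 0.26 within numbers 1 and 3, and 0.27 within numbers 4 and 5. Leaving out 1 of the 8 arrays moved it between 0.17, without mutant array 3, and 0.36, without wild type array 3. The dim probe set 1418146_a_at had 134, 126, 119, 135 and 117 in the mutant arrays, against 106, 143, 117, 106 and 91.9 in the wild type arrays. When the filter on dim probe sets was dropped its log2 fold change was 0.26 in the 8 arrays, with an adjusted p of 0.313 by limma, and 0.17 in the 10 arrays.

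Arrays that share a number were also set side by side. The mutant array exceeded its wild type counterpart in 11 of 17 member probe sets for number 1, 16 for number 3, 13 for number 4 and 14 for number 5. For number 2 this was so for 1 of 17, and the other 16 were lower in the mutant array. Over all tested probe sets the share higher in the mutant array was 44.3% for number 1, 38.7% for number 2, 49.8% for number 3, 49.8% for number 4 and 48.1% for number 5. The median log2 difference of the members was 0.028, -0.22, 0.22, 0.15 and 0.23 for numbers 1 to 5, against medians between -0.058 and -0.0010 for all tested probe sets. With the side of the first principal component as a covariate in the 8 arrays, limma called 4 members higher. These were E2f5 by 2 probe sets and E2f1 by 1447840_x_at and 1417878_at, against 2.9% of all tested probe sets called higher. With the replicate block it called 3 members higher, the same without E2f1 1417878_at, against 2.4% of all called higher. Within numbers 1 and 3 alone it called 1 member, E2f1 1447840_x_at (log2 fold change 0.54, adjusted p = 0.0273), against 1.42% of all tested probe sets called higher, and E2f5 1417444_at missed at 0.0662. With array weights in the 8 arrays it called 3 members higher, both E2f5 probe sets named above and E2f1 1447840_x_at. Of all tested probe sets 4.57% were then called higher, and 2612 of 22519 were called in either direction. Within numbers 4 and 5 alone it called 0 of the 17 members and 0 of all probe sets, with 2132 probe sets at an unadjusted p below 0.05.

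E2F genes are themselves known to be driven through E2F sites, so the promoters that RefSeq gives (GRCm38.p6, 250 bases before to 50 after each start) were searched. The motifs TTTGGCGC, TTTCCCGC, TTTGCCGC and TTTCGCGC were looked for on both strands. They differ from each other in their middle letters, so 1 stretch of 1 strand matches only 1 of them, while matches on opposite strands can overlap. A match was found in 4 of 10 promoters of 8 member genes, 1 each for E2f2, E2f3, E2f7 and Rbl1, and in 744 of 32851 promoters or 2.26% of all. E2f1, E2f6, E2f8 and Rbl2 held none of these letters in this window. E2f4 and E2f5 were not searched. The match of E2f2 began 40 bases after the start site. The other 3 lay upstream and are shown in the direction of the gene, 5′ to 3′, with the motif in capitals.
E2f3 (chr13:29986064-29986134, minus strand): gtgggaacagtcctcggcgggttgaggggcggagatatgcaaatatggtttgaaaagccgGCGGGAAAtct
E2f7 (chr10:110745189-110745284, plus strand): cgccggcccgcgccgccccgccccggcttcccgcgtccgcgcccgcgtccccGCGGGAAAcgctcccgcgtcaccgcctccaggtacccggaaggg
Rbl1 (chr2:157204535-157204612, minus strand): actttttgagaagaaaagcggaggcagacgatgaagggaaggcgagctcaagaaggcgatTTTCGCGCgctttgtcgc
In E2f3 and E2f7 the motif TTTCCCGC lies on the opposite strand and reads GCGGGAAA, and its first base as printed is 11 bases before the start in E2f3 and 198 in E2f7. In Rbl1 it begins 18 bases before the start. A match is a stretch of letters and not a measured binding site. The log2 fold changes of these 4 genes in the 8 arrays, by the probe set that stands for each, were 0.084 for E2f2, 0.26 for E2f3, 0.43 for E2f7 and 0.14 for Rbl1, as given above with their 10-array values, and none passed the test. For the searched genes without a match they were 0.14 for E2f1, 0.015 for E2f6, 0.028 for E2f8 and 0.26 for Rbl2. A link between a match and a fold change was not tested.

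The genes whose signal went most closely with E2f5 1417444_at over the 10 arrays, among 11600 others, were Plekha3, Galnt7 and Zfp280b, with Pearson's r of 0.977, 0.976 and 0.975. The likeness is a description over arrays that share their groups. The 3 genes were picked by this likeness over the same arrays. Their values in the arrays numbered 2 and their fold changes follow from that pick and are not separate tests. Plekha3, a lipid-binding protein of the Golgi, had 499, 314, 607, 589.7 and 598 in the mutant arrays, against 350.1, 584, 323, 373 and 344 in the wild type arrays. Galnt7, an enzyme that adds sugars to proteins in the Golgi, had 807, 387, 954, 1016 and 972 in the mutant arrays, against 442, 918, 445, 492 and 549 in the wild type arrays. Zfp280b, a zinc finger protein, had 553, 348, 584, 626 and 639.6 in the mutant arrays, against 405, 556, 393, 439 and 400.5 in the wild type arrays. In all 3 the mutant array numbered 2 lay below every wild type array, and the wild type array numbered 2 lay within the range of the other mutant arrays, as for E2f5. Their log2 fold changes in the 8 arrays were 0.72, 0.96 and 0.55, with adjusted p-values of 0.00735, 0.00369 and 0.0135 by limma, and 0.40, 0.52 and 0.31 in the 10 arrays, each with an adjusted p of 1.00.

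The genes around the E2Fs were then counted by list, 1 probe set per gene, against 246 of 11601 genes called in the 8 arrays (2.12%), 45.6% of genes above 0 and a median log2 fold change of -0.013 over all genes. With all 10 arrays 0 genes of any list were called and the median over all genes was -0.026. Of the DP partners, Rb, Mybl2 and the subunits of the DREAM complex, which joins p107 or p130 to E2f4 or E2f5, 0 of 9 were called. In the 8 arrays 9 of 9 were above 0 with a median of 0.070, and in the 10 arrays 8 of 9 with a median of 0.030. Rb1, the retinoblastoma protein, had 334, 257, 353, 511 and 313 in the mutant arrays, against 219, 340.1, 233, 322 and 318 in the wild type arrays, and 1 high mutant array, number 4, stood out. Its log2 fold change was 0.46 (SE 0.18, adjusted p = 0.320 by limma) in the 8 arrays, 0.31 without mutant array 4, and 0.29 in the 10 arrays. Mybl2, an activator that takes over from DREAM later in the cycle, is also counted among the G1/S targets below. Its log2 fold change was 0.095 (adjusted p = 0.696 by limma) in the 8 arrays and 0.024 in the 10 arrays.

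Of the cyclins, kinases and inhibitors that act on the pocket proteins in G1, 13 of 15 were bright enough to be tested and 0 were called, with 8 of 13 above 0 in either comparison and a median of 0.036 in the 8 arrays and 0.038 in the 10 arrays. Ccnd1, cyclin D1, which starts the phosphorylation of pocket proteins, had 2141, 2119, 2430.0, 2326 and 2316 in the mutant arrays, against 1933, 2149, 2195, 2056 and 1759.6 in the wild type arrays. Its log2 fold change was 0.22 (SE 0.080, adjusted p = 0.273 by limma) in the 8 arrays and 0.17 in the 10 arrays. Ccne2, cyclin E2, both a partner of Cdk2 and an E2F target, had a log2 fold change of 0.32 (SE 0.13, adjusted p = 0.321) in the 8 arrays and 0.15 in the 10 arrays.

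E2F target genes of the G1/S transition and DNA replication numbered 38 tested, of which 0 were called. In the 8 arrays 26 were above 0 with a median of 0.073, and in the 10 arrays 24 with a median of 0.024. The smallest p-values in the 8 arrays belonged to Mcm3, a subunit of the replicative helicase, with a log2 fold change of 0.19 (SE 0.068, adjusted p = 0.248 by limma), and Ezh2, a Polycomb methyltransferase, with 0.17 (SE 0.062, adjusted p = 0.253). Both had 0.11 in the 10 arrays.

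Targets of the DREAM complex expressed in G2 and mitosis numbered 21 tested, of which 1 was called in the 8 arrays. There 12 were above 0 with a median of 0.061, and in the 10 arrays 10 were, with a median of -0.0070. The gene called was Kif23, a kinesin of the central spindle needed for cytokinesis, with 1410.2, 1032, 1463, 1498 and 1570.4 in the mutant arrays 1 to 5, against 1007, 1326, 1110.0, 1061 and 974 in the wild type arrays 1 to 5. Without number 2 every mutant array lay above every wild type array, and the mean was 1486 ± 67.1 in mutant and 1038 ± 59.9 in wild type arrays (SD, n = 4 each), a 1.43-fold rise (log2 0.52, SE 0.072, adjusted p = 0.0113 by limma). Its log2 fold change was 0.34 (adjusted p = 1.00) in the 10 arrays, and when each of the 8 arrays was left out in turn the call held in 6 of 8, with adjusted p-values from 0.0125 to 0.0518, and was lost without mutant array 4 or mutant array 5. With the replicate block Kif23 stayed called (adjusted p = 0.0132), and Cenpa, the centromeric histone, which was not called before (log2 fold change -0.34, adjusted p = 0.161, and -0.20 in the 10 arrays), fell with an adjusted p of 0.0311. Over all 22519 tested probe sets the block called 541 higher and 678 lower.

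E2f6 works with the Polycomb complex PRC1.6. Of its partners 10 of 11 on the array were tested and 0 were called, with 7 of 10 above 0 in either comparison and medians of 0.049 in the 8 arrays and 0.014 in the 10 arrays. Pcgf6, the subunit that defines the complex, had a log2 fold change of 0.22 (SE 0.085, adjusted p = 0.308 by limma), and Hdac2, a histone deacetylase found in it, had -0.16 (SE 0.066, adjusted p = 0.360) in the 8 arrays. Their values in the 10 arrays were 0.10 for Pcgf6 and -0.076 for Hdac2. Germline genes known to be silenced through E2f6, such as Stag3 and Smc1b, were represented by 9 genes, all of them under the filter. Their summed signal ranged from 529 to 573 in the mutant arrays and from 516 to 596 in the wild type arrays, so the groups overlapped and no difference was tested.

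**Figure D4:**
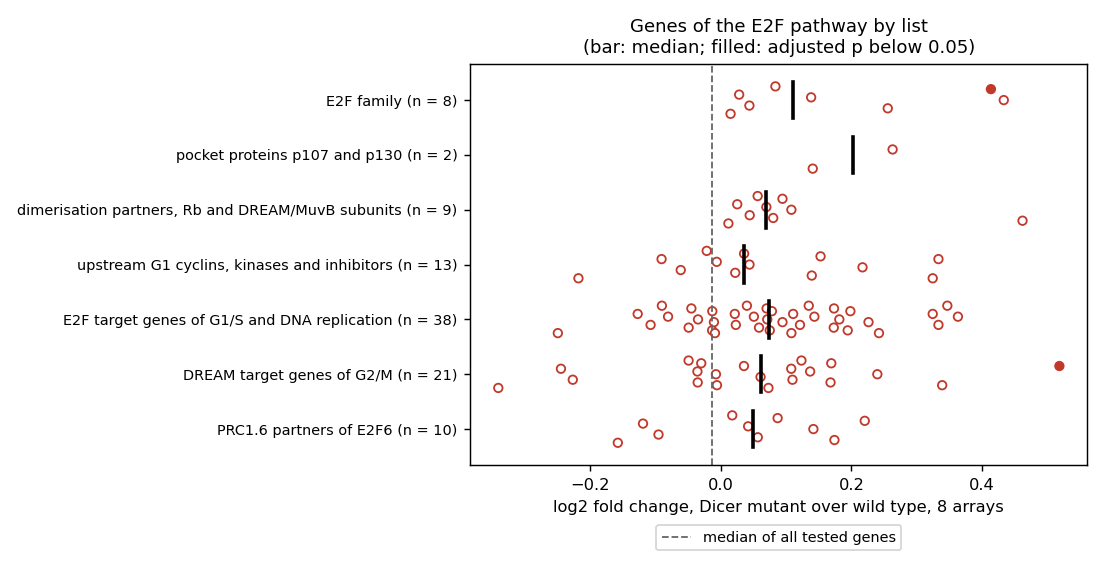
Log2 fold change of Dicer mutant over wild type in the 8 arrays (horizontal axis) of 1 probe set per gene in 7 lists of the E2F pathway, with a bar at each list's median and a dashed line at the median of all tested genes. The filled points, with an adjusted p below 0.05, are E2f5 at 0.41 and Kif23 at 0.52.

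Markers of other cells in a limb bud were read in the same arrays. Of the markers of macrophages and other white blood cells, 4 of 7 were tested and 0 were called in the 8 arrays. Ctss, a protease of these cells, had a log2 fold change of 0.43 (adjusted p = 0.0773 by limma), Tyrobp, a signalling adaptor, had 0.49 (adjusted p = 0.223), Fcer1g had 0.16 and Csf1r, the receptor that defines the lineage, had -0.0059. In the 10 arrays these values were 0.20 for Ctss, 0.18 for Tyrobp, -0.0040 for Fcer1g and -0.090 for Csf1r. Ctss and Tyrobp were called with the replicate block in the 8 arrays, at adjusted p-values of 0.0197 and 0.0164. For this and the block calls below, the block called 541 of all 22519 tested probe sets higher and 678 lower. The summed signal of the 7 markers was 1406 to 1681 in the mutant and 1354 to 1528 in the wild type arrays of the 8, and 1313 to 1681 in the mutant and 1354 to 1884 in the wild type arrays of all 10, with 0 of the 7 at 0. Cartilage had 1 marker of 4 tested called in the 8 arrays, against 2.12% of all genes. This was Col11a1, a collagen, lower at -0.58 (adjusted p = 0.0314 by limma) and at -0.27 in the 10 arrays. The others were uncalled, with 0.083 for Col2a1, -0.27 for Sox9 and -0.19 for Col9a1 in the 8 arrays. In the 10 arrays they had 0.11, -0.20 and -0.12. The median of the 4 was -0.23 in the 8 arrays and -0.16 in the 10 arrays. Among the tested markers of muscle, endothelium, surface ectoderm, red blood cells and nerve 0 were called. Of the surface ectoderm markers 5 of 7 were above 0 in the 8 arrays, with a median of 0.057, and 2 of 7 in the 10 arrays, with a median of -0.0066. With the replicate block 1 of the 7, the keratin Krt14, was called lower in the 8 arrays (log2 fold change -0.39, adjusted p = 0.0435; -0.34 in the 10 arrays). Of the mesenchyme markers 6 of 14 were above 0 and 8 below in the 8 arrays, with a median of -0.021, and 4 were above in the 10 arrays, with a median of -0.033. The hindlimb transcription factor Tbx4, 1 of the 14, was called higher with the replicate block in the 8 arrays at an adjusted p of 0.00705, with a log2 fold change of 0.58 (adjusted p = 0.157 without the block) and 0.40 in the 10 arrays. Of the other limb type genes in that list, Pitx1 had 0.0020 and Tbx5 had -0.21 in the 8 arrays. They had -0.00073 and -0.11 in the 10 arrays, and neither was called with or without the block. The part of these markers in the values of E2f5, E2f1 and the other members was not tested.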

How the data were processed

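Total RNA was labelled with biotin and each sample was read on its own Affymetrix array, per the labels' protocols. The authors deposited linear intensity values for 45101 probe sets in 10 arrays, and the submitters' processing notes name GCOS version 1.3. How probes were summarised, the scaling target and detection calls are not stated in those sources, so it is unknown how far a dim signal stands above background, and changes of dim genes may be understated. Trimmed means (2%) of the arrays ran from 276, in Dicer mutant array 2, to 289. Their spread of 4.76% was under the limit of 10% for adding a normalization. The number of arrays limits the precision.

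Values under 1 were raised to 1 before log2. Without the 64 control probe sets, the brighter ones by mean log2 (from the median up, a signal of about 151) were tested, 22519 in all. limma 3.58.1 in R 4.3.3 (lmFit, eBayes with trend) compared the labelled groups, with Benjamini-Hochberg adjustment at 0.05. The test was checked on simulated arrays drawn independently of each other. These hold neither the split by number nor the likeness of arrays with the same number, so the check does not cover those features. The platform annotation gave 1 symbol to 34945 probe sets, several to 932 and none to 9160, and only the first kind was named. For each gene the brightest of its tested probe sets was used, avoiding _s_at and _x_at where possible. Beside the members and Dicer1, the text names for each list up to 4 called genes or the 2 with the smallest p, and the 3 genes most like a called member. Fcer1g, Csf1r, Cenpa, Col2a1, Sox9, Col9a1, Pitx1, Tbx5 and examples of lists without values were named outside that rule. Cenpa was named after its blocked value was seen, and Col2a1, Sox9, Col9a1, Pitx1 and Tbx5 after their values were seen. The members and lists were chosen with earlier results of these data known, and so was the comparison without both arrays numbered 2.

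Both groups carry numbers 1 to 5. The deviations from the group means of arrays with the same number correlated at 0.43, -0.18, 0.27, 0.67 and 0.41 for numbers 1 to 5 in the 10 arrays. In the 8 arrays they correlated at 0.55, 0.55, 0.71 and 0.32 for numbers 1, 3, 4 and 5. The numbers were taken to pair the 8 arrays and not the 10, a choice that these correlations do not settle. The split of numbers 1 to 3 from numbers 4 and 5 can itself make arrays on the same side alike. Arrays with different numbers on the same side were not compared, so the correlations cannot show pairing by number. The pairing comes from the numbers in the labels and these correlations only. Alternatives were quantile normalization, median centring, an added offset of 16 or 64, no filter or one at the 70th percentile, no trend, array weights, the replicate block, the side of the first component as a covariate, subsets by number, the mean of a gene's probe sets, and leaving out each array.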

Additional observations from a re-analysis of the deposited data

Results flagged for a closer look

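In each group of 5 arrays the highest and lowest signal of every member probe set was compared with its neighbours by Dixon's criterion. Of 44 groups 4 held an array that stood apart, where chance gives about 1 in 20. In E2f5 1417444_at, the wild type array 2 had a signal of 1119 (others 811 to 896), and in E2f1 1447840_x_at, wild type array 2 had 203 (others 141 to 155). Both belong to the array whose Dicer1 signal was the lowest of its group. In the dim Rbl1 probe set 1425166_at, Dicer mutant array 1 had 98.1 (others 117 to 124) and wild type array 5 had 207 (others 98.6 to 120.4). That probe set was under the filter and entered no test, and the other Rbl1 probe sets showed no such array.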

How the results depend on the processing

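The 10 arrays as labelled gave 0 called probe sets and 0 called members under every alternative run on them except leaving out both arrays numbered 2, which gave 378 and 1. In the 8 arrays, where 378 probe sets and 1 member were called, array weights gave 2612 and 3, the replicate block 1219 and 3, the side of the first component as a covariate 1538 and 4, numbers 1 and 3 alone 812 and 1, and numbers 4 and 5 alone 0 and 0. Leaving out each array in turn gave 93 to 745 probe sets, the most without wild type array 5, and 0 to 1 members. The cause of these shifts was not tested. Normalization, centring, offsets, filters and the trend left the count of called members at 1. In the 10 arrays, where the numbers were not taken to pair the samples, the replicate block called 0 probe sets and 0 members.

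Of the 340 alternative values of tested members in the 8 arrays 308 kept direction and side of the threshold, and of 391 in the 10 arrays 365 did. Ccne2 was also called with array weights or the side as a covariate, and Rb1 within numbers 1 and 3. The values that changed sign were all small and uncalled, and the cause was not tested. With all 10 arrays, numbers 1 to 3 alone gave log2 fold changes of -0.067 for E2f2 1455790_at, -0.036 for E2f3 1427462_at, -0.12 for E2f3 1434564_at, -0.022 for E2f7, -0.015 for E2f8 1436186_at, -0.0085 for Rbl1, -0.027 for Mybl2 and -0.053 for Pcgf6. Array weights gave -0.050 for E2f2 1436434_at, -0.083 for E2f2 1455790_at and -0.14 for E2f8 1436186_at. Quantile normalization gave 0.00015 for E2f5 1447625_at, and leaving out both arrays numbered 2 gave 0.020 for it and 0.015 for E2f6. The mean of its probe sets gave -0.020 for E2f8. In the 8 arrays, array weights gave -0.070 for E2f2 1436434_at, -0.088 for E2f2 1455790_at, -0.062 for E2f5 1447625_at, -0.080 for E2f6 and -0.16 for E2f8 1436186_at. Numbers 4 and 5 alone gave -0.0042 for E2f5 1447625_at and -0.017 for E2f6, and the mean of its probe sets gave -0.022 for E2f8.

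Leaving out 1 array at a time moved 10-array values across 0 for E2f2 1436434_at (-0.012 to 0.093), E2f2 1455790_at (-0.067 to 0.16), E2f3 1427462_at (-0.018 to 0.096), E2f5 1447625_at (-0.082 to 0.020), E2f6 (-0.12 to 0.016), E2f8 1436186_at (-0.070 to 0.055), E2f8 1444319_at (-0.088 to 0.0091) and Mybl2 (-0.011 to 0.088). In the 8 arrays it did so for E2f2 1455790_at (-0.036 to 0.26), E2f5 1447625_at (-0.040 to 0.054), E2f6 (-0.040 to 0.061) and E2f8 1436186_at (-0.063 to 0.10).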
